A study of Mus musculus with 30 samples.

Results

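Complex I, the NADH dehydrogenase of the mitochondrial respiratory chain, was followed at the level of its messages in the diaphragm of mice carrying the mutation of SBMA, spinal and bulbar muscular atrophy. In this heritable disorder a protein with too long a run of glutamines harms motor neurons and muscle. Its genes were taken by symbol: Nduf followed by a, b, c, s or v and a digit, Ndufab1, and every mt-Nd gene, leaving out the Ndufaf assembly factors and pseudogenes. Of 33076 genes in the table, 49 matched and 45 were kept, 38 in the nuclear genome and 7 in the mitochondrial genome. The 4 left out were Ndufb1-ps and Ndufab1-ps by their symbols and Ndufa11b and Ndufs6b by their annotation as pseudogenes. Of the 38 nuclear genes, 36 encode subunits of complex I, Ndufa4 is now placed in complex IV, and Ndufa4l2 is a paralog of Ndufa4.

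The libraries came from 15 male mice and fall into 8 groups. SBMA mice carried BACfxAR121 (spelled BACfxR121 in some labels), a transgene with the expanded human disease gene. Control mice were HSA-Cre;BACfxAR121 littermates, described as muscle-rescued: they carry the same transgene, and Cre recombinase driven by a skeletal actin promoter acts on it in skeletal muscle, so no group lacks the transgene in other tissues. Each diaphragm was cut into a perisynaptic piece, where the neuromuscular junctions lie, and an extrasynaptic piece away from them. Per piece there were 4 SBMA and 3 control mice at 15 weeks and 4 SBMA and 4 control mice at 26 weeks.

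Complex I takes electrons from NADH and passes them to ubiquinone while it pumps protons across the inner mitochondrial membrane. Its matrix arm consists of the N module, which oxidises NADH, and the Q module, which reduces ubiquinone. Its membrane arm is built around the subunits made inside the mitochondrion. The nuclear subunits are made in the cytosol and imported, so the complex draws on both genomes, and the mitochondrial messages are cut from long transcripts, mt-Nd6 from the strand opposite to the other mt-Nd genes. In muscle, slow and oxidative fast fibres hold more mitochondria than glycolytic fast fibres.

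The libraries held 16280873 to 34694446 counts assigned to genes. Levels are counts relative to library size (CPM), with library sizes scaled by TMM (trimmed mean of M values), and a gene is called changed when its p from edgeR's quasi-likelihood test, adjusted over all genes tested by the Benjamini-Hochberg method, is below 0.05. Scaling to total counts moved the median log2 fold change of all genes, SBMA minus control, to 0.24 in perisynaptic and 0.18 in extrasynaptic pieces at 26 weeks and to 0.073 and 0.19 at 15 weeks, against -0.016, -0.031, -0.011 and -0.0057 in the same order under TMM. The pieces carried strong skeletal muscle signal: the summed level of 7 skeletal muscle markers spanned 51513 to 58802 CPM in extrasynaptic SBMA pieces at 26 weeks and 96738 to 108906 CPM in control ones. Ucp1, Elovl3 and Nppa, which define brown fat and atrial muscle, reached at most 0.0666, 0.17 and 0.492 CPM in any library. Control mouse 2 at 26 weeks stood apart: nuclear members took 1.72% of its perisynaptic counts and 1.31% of its extrasynaptic counts, against 0.964% to 1.19% in the other control libraries of that age, so the counts of calls at 26 weeks are also given without it. At 26 weeks the animal numbers form a pair of consecutive runs, each with 2 SBMA and 2 control mice (replicates 1 and 2, and replicates 3 and 4), and the comparisons were repeated within each run. At 15 weeks they also form a pair of runs, but the genotypes are unbalanced. One run holds control replicate 1 and SBMA replicates 1, 2 and 3, and the other control replicates 2 and 3 and SBMA replicate 4.

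Of the 7 mitochondrial members, mt-Nd3 and mt-Nd4l had next to no counts: 0 or 1 in every library, while mt-Nd4, which lies directly downstream of mt-Nd4l, had 124736 to 299384. Both have a nearly identical copy on chromosome 1, where a stretch of mitochondrial DNA sits in the nuclear genome. Of the 50-base windows of mt-Nd3 (chrM:9459-9806, + strand, mm10), 293 of 299 (98%) also occur in annotated pseudogenes, mainly Gm28438 (chr1:24612775-24613119, - strand). For mt-Nd4l (chrM:9877-10173, + strand) the share was 98.8%, with Gm10222 (chr1:24612407-24612700, - strand). The first 120 bases of mt-Nd3 and of its copy, from the GENCODE vM21 transcripts, show how close the copies are. The capital marks the base that differs over the 345 bases compared, T3C, counted from the 5′ end of mt-Nd3:
mt-Nd3: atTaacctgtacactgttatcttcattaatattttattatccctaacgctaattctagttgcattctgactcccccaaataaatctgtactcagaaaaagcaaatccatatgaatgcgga
Gm28438: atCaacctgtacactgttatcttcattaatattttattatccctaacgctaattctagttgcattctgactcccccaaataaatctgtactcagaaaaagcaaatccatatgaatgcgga
Over 294 bases mt-Nd4l and Gm10222 had 0 differences. The same pattern held outside complex I: mt-Co2, mt-Co3 and mt-Atp6 also had 0 or 1 counts per library and shared 635 of 635, 734 of 735 and 629 of 632 windows with pseudogenes. The copies themselves were not counted either, with at most 4 counts per library for Gm28438. How reads that match several places were counted is not given in the sources used here, and its part in these zeros was not tested. For the 2 genes no level or change can be read from this table.

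Among the other mitochondrial members, mt-Nd1 and mt-Nd6 shared 0 windows with pseudogenes, mt-Nd2 shared 8.19%, mt-Nd5 7.61% and mt-Nd4 62.2%, so mt-Nd1 and mt-Nd6 are the mitochondrial members least exposed to near-copies. mt-Nd6 (chrM:13552-14070, - strand) overlaps the end of mt-Nd5 (chrM:11742-13565, + strand), and whether counting used the strand is not given in the sources used here. Among nuclear members, Ndufs5 shared 21.7% of its windows, mostly with BC002163, which had 29 to 61 counts per library, Ndufb4 shared 18.3%, Ndufa12 17.7% and Ndufs3 16.1%. The remaining nuclear members shared under 10%, and Ndufs7, Ndufa5, Ndufv1 and Ndufa9 shared 0.

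Per kilobase of annotated exon, the mitochondrial messages stood far above the nuclear ones. In extrasynaptic control diaphragm at 26 weeks mt-Nd1 averaged 19682 CPM per kb, mt-Nd2 14389, mt-Nd4 7006, mt-Nd5 6745 and mt-Nd6 3564 CPM per kb. Among the highest nuclear members were Ndufa4 with 664 and Ndufa8 with 435 CPM per kb, and the lowest were Ndufab1 with 6.97 and Ndufa4l2 with 7.19 CPM per kb. Lengths are unions of all annotated exons, so a gene with long, rarely used exons is set too low, and how near-copies bear on the count of mt-Nd4 was not tested.

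Summed over members, the nuclear messages separated the genotypes in extrasynaptic pieces and overlapped in perisynaptic ones. At 26 weeks the 38 nuclear members together reached 8896 ± 163 CPM in SBMA and 11881 ± 1108 CPM in control extrasynaptic pieces (SD, n = 4 each), and the SBMA libraries, at 8740.3 to 9123 CPM, all lay below the control libraries, at 10916 to 13244 CPM. In perisynaptic pieces at 26 weeks the sums were 9931 ± 954 CPM in SBMA and 12643 ± 2822 CPM in control pieces, and the ranges, 8835 to 10834 and 10787 to 16795 CPM, overlapped. At 15 weeks the sums were 10119.7 ± 950.5 CPM in SBMA (n = 4) and 11117 ± 1234 CPM in control (n = 3) perisynaptic pieces, and 9845 ± 117.5 and 10918 ± 1123 CPM in SBMA and control extrasynaptic ones, with ranges of 9732 to 9972 CPM in SBMA and 10107 to 12199.8 CPM in control mice. Control mouse 2 was the highest control library of both pieces at 26 weeks.

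The mean mitochondrial sum was lower in SBMA than in control mice in both pieces at 26 weeks, and higher in both at 15 weeks. It was 49729 ± 2377 CPM in SBMA and 57578 ± 6509 CPM in control extrasynaptic pieces at 26 weeks, with overlapping ranges, and 44268 ± 8460.2 and 54668 ± 7399 CPM in SBMA and control perisynaptic ones. At 15 weeks it was 56448 ± 7445 CPM in SBMA and 50444 ± 9465 CPM in control perisynaptic pieces, and 56549 ± 2480.4 and 55759.9 ± 5415 CPM in SBMA and control extrasynaptic ones. In every pair the genotypes overlapped. Among extrasynaptic controls at 26 weeks, only control mouse 2 lay within the SBMA range, so that overlap rested on this library. The log2 ratio of the nuclear to the mitochondrial sum within a library was -2.48 ± 0.084 in SBMA and -2.27 ± 0.29 in control extrasynaptic pieces at 26 weeks, a difference within the spread of the controls. Control mouse 2 had the lowest mitochondrial and the highest nuclear sum of those controls, so it widened that spread.

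**Figure D1:**
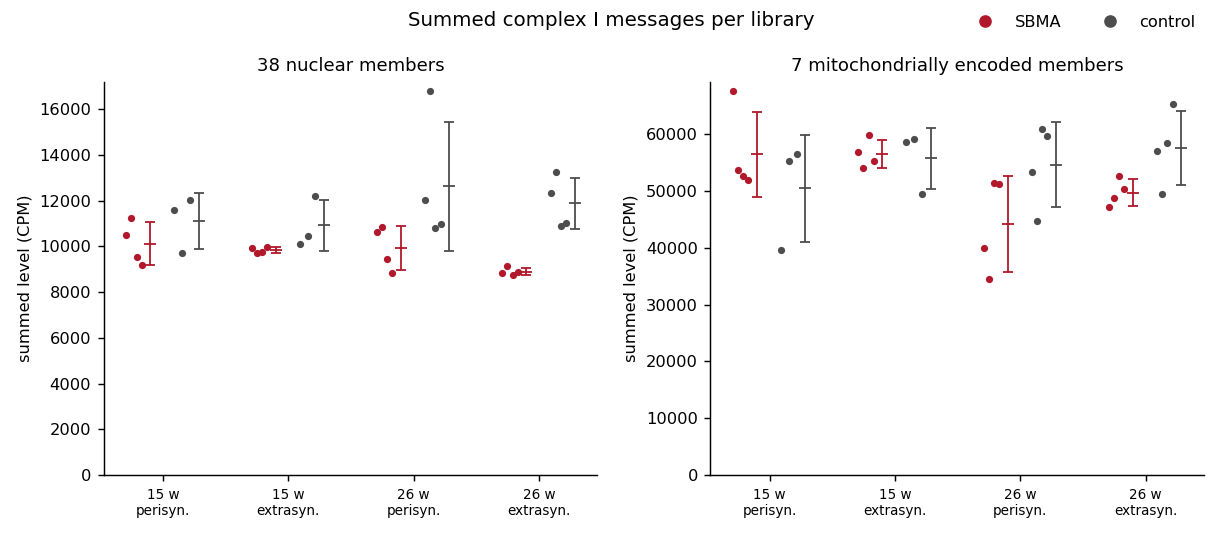
Summed level of the 38 nuclear members (left) and the 7 mitochondrially encoded members (right) in CPM, 1 point per library, with the mean and SD beside each group, by age and piece. For the nuclear members at 26 weeks, extrasynaptic SBMA libraries span 8740.3 to 9123 CPM, all below the controls at 10916 to 13244 CPM, while the mitochondrial sums overlap in every pair. In extrasynaptic pieces at 26 weeks that overlap rests on control mouse 2.

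In extrasynaptic diaphragm at 26 weeks, SBMA mice had lower levels of nearly every nuclear complex I message. Of 38 nuclear members, 36 were called lower and 0 higher, where 16.1% of all 15526 genes tested were called lower. Of 5 mitochondrial members tested, mt-Nd1 and mt-Nd4 were called lower. The median log2 fold change was -0.43 over the nuclear members and -0.21 over the mitochondrial ones, against -0.031 over all genes tested. In 35 of 38 nuclear members every SBMA library lay below every control library, which held for 14.6% of all genes. The fall went with lower skeletal muscle markers: 5 of 7 were called lower, among them Ckm (log2 fold change -0.92) and Mb (-2.33), while Des was called higher (0.34) and Ttn had -0.19 (adjusted p = 0.456). In bulk tissue fewer muscle fibres and less message per fibre cannot be told apart, and the part of either in the fall was not tested.

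The 2 largest changes were those of Ndufa5 and Ndufs7 of the Q module. Ndufs7, the subunit that holds the last iron-sulphur cluster before ubiquinone, had 233, 252, 242 and 245 CPM in the SBMA pieces, against 418, 505, 372 and 379 CPM in the control pieces. The SBMA libraries lay close together and all far below the lowest control. Its log2 fold change was -0.79 ± 0.099 (SE, adjusted p = 3.52e-05). Ndufa5, a small accessory subunit of the same module, had 179, 196, 188 and 191 CPM in SBMA and 342, 397, 293 and 299 CPM in control pieces. This was the largest fall of any member, at -0.82 ± 0.093 (adjusted p = 1.49e-05), and again no SBMA library reached a control. Ndufa9, which sits where the matrix arm meets the membrane arm, had 333, 340.2, 339 and 363 CPM in SBMA and 488, 487, 460.0 and 458 CPM in control pieces. Its change of -0.46 ± 0.056 (adjusted p = 2.46e-05) was smaller, but its replicates were tight in both genotypes. The core subunits Ndufs3 and Ndufs8, of which Ndufs8 carries iron-sulphur clusters, changed by -0.42 and -0.50 on the log2 scale, and all 6 Q module genes were called lower, with a median of -0.48.

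The N module showed smaller changes, with 9 of 10 genes called lower and a median of -0.37. Ndufv1, which binds NADH and the flavin cofactor, had 610.1, 619, 611 and 631 CPM in SBMA and 701, 772, 668 and 682 CPM in control pieces. The genotypes did not overlap, yet the gap was small against the control spread, and the log2 fold change was -0.19 ± 0.070 (adjusted p = 0.0479). That call was lost when any 1 of 10 of the 15 mice was left out, with the smallest value without control mouse 2 (-0.15, adjusted p = 0.114). It was also lost with RLE size factors (adjusted p = 0.0648), the replicate block (0.0943), only the groups compared (0.0953), no filter (0.237) and within each run. Its partner Ndufv2 changed more, by -0.51 ± 0.081 (adjusted p = 2.26e-04), with 299, 317, 292 and 281 CPM in SBMA and 448, 471, 405 and 372 CPM in control pieces. Ndufs1, the large iron-sulphur subunit, had 635, 662, 684 and 660.3 CPM in SBMA and 735, 636, 790.0 and 834 CPM in control pieces. These overlapped, and its log2 fold change of -0.18 ± 0.071 was not called (adjusted p = 0.0630).

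In the membrane arm, 8 of 9 genes of the proximal part and 11 of 11 of the distal part were called lower, with medians of -0.40 and -0.43. The exception was Ndufa13, also known as GRIM-19, with -0.25 ± 0.11 (adjusted p = 0.0859). The larger falls in the distal part were those of Ndufb2 (-0.65 ± 0.11), Ndufb7 (-0.64 ± 0.11) and Ndufb4 (-0.60 ± 0.11). Ndufb2 had 49.1, 60.2, 55.6 and 49.2 CPM in SBMA and 85.6, 102, 72.1 and 75.4 CPM in control pieces, where control mouse 2 was highest and the genotypes did not overlap. Ndufab1, the mitochondrial acyl carrier protein, which also serves fatty acid synthesis, changed by -0.52 ± 0.076 (adjusted p = 1.27e-04), with 31.2, 36.8, 35.2 and 31.0 CPM in SBMA and 47.5, 48.0, 45.8 and 50.7 CPM in control pieces. Ndufb10 and Ndufa10 changed by -0.56 and -0.42, and the smallest called change of the membrane arm was that of Ndufc2, -0.23 ± 0.059.

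The genes that the symbols bring in beside the subunits behaved likewise. Ndufa4 had 693, 723, 614 and 652 CPM in SBMA and 976, 1018, 834 and 839 CPM in control pieces, a change of -0.45 ± 0.087 (adjusted p = 0.00118). Ndufa4l2, which is known as a hypoxia-induced gene, stood near the bottom of the range with 5.92, 4.71, 5.96 and 5.99 CPM in SBMA and 9.87, 9.60, 6.63 and 5.38 CPM in control pieces. Its groups overlapped, and its call (-0.47 ± 0.17, adjusted p = 0.0450) was lost when any 1 of 11 of the 15 mice was left out.

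**Figure D2:**
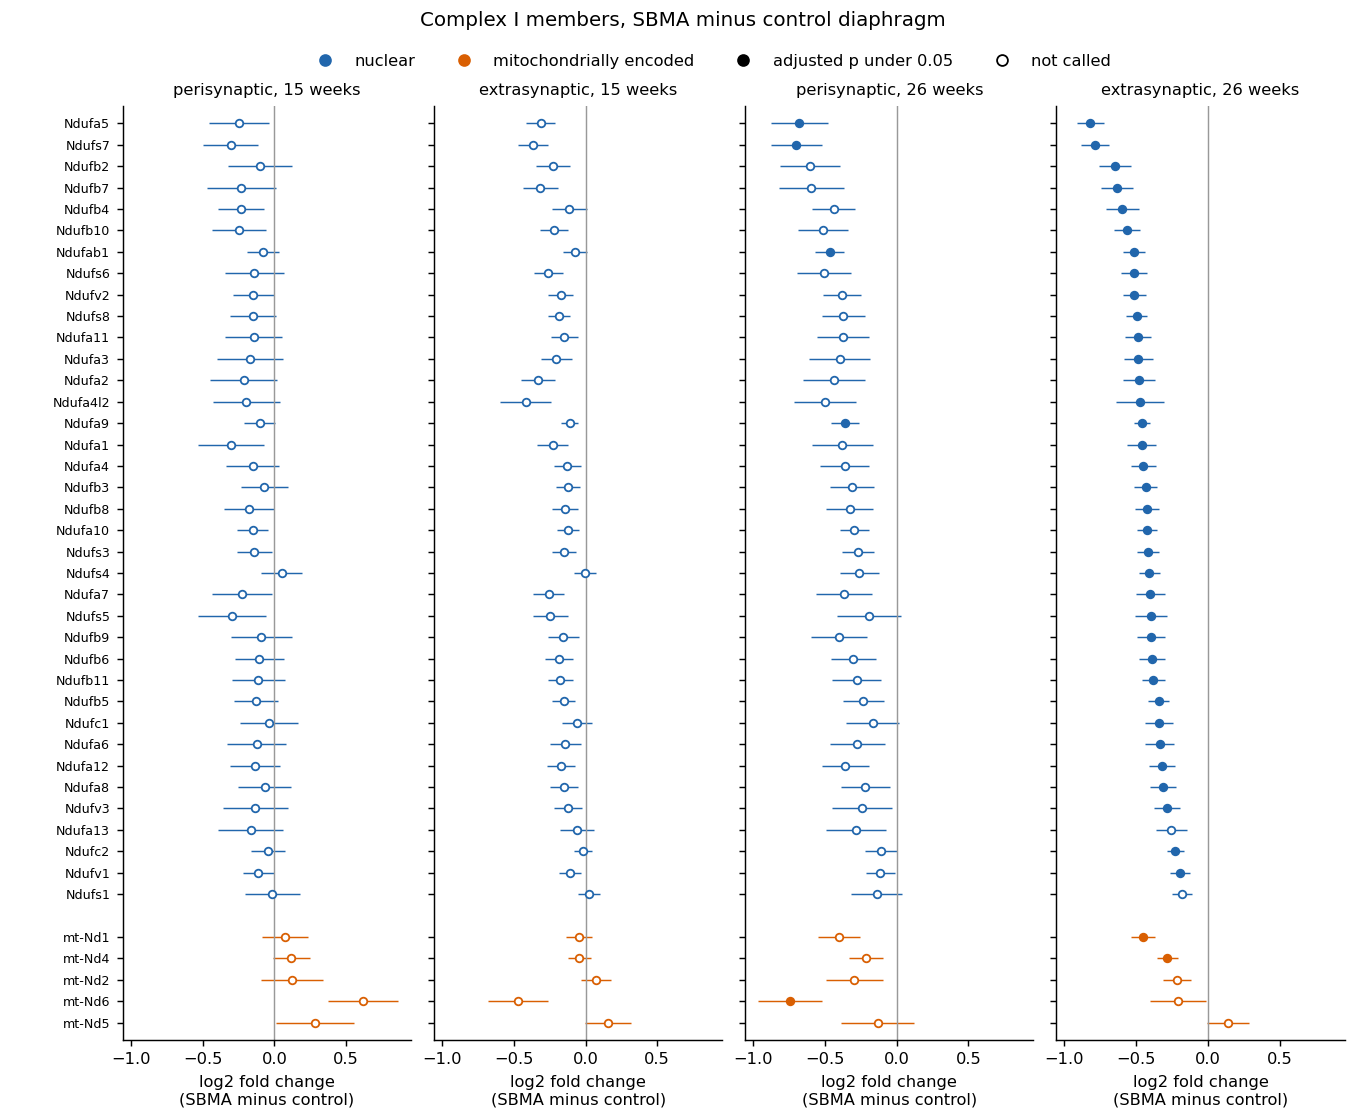
Log2 fold change, SBMA minus control, with its SE for 37 of the 38 nuclear (blue) and 5 tested mitochondrially encoded members (orange) in each piece and age, ordered by the extrasynaptic value at 26 weeks. Filled points have an adjusted p under 0.05 and open points do not: 35 nuclear and 2 mitochondrial points are filled in extrasynaptic pieces at 26 weeks, 4 and 1 in perisynaptic pieces at 26 weeks, and 0 at 15 weeks.

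The size of the result hung on scaling more than on single mice. With total counts in place of TMM, 14 nuclear members were called lower, with a median of -0.22, and Ndufv1 turned to 0.0185 (adjusted p = 0.878), while Ndufs7 (-0.58), Ndufa5 (-0.61) and Ndufa9 (-0.25) remained lower with adjusted p of 5.90e-04, 2.56e-04 and 0.00819. The median of all genes moved likewise, from -0.031 with TMM to 0.18 with total counts. Without control mouse 2, 33 nuclear members were called lower, with a median of -0.38 and Ndufs7 at -0.68, Ndufa5 at -0.72 and Ndufa9 at -0.45. By module the counts without that mouse were 7 of 10 (N), 6 of 6 (Q), 8 of 9 (proximal) and 11 of 11 (distal). Within the first animal-number run, which holds that mouse, 33 nuclear members were called lower, and within the second 13. The shares of all genes called lower under these alternatives are not given here.

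A ratio of 2 members in the same library does not depend on scaling. The log2 ratio of Ndufs7 to Ndufv1 was -1.35 ± 0.040 in SBMA and -0.76 ± 0.11 in control extrasynaptic pieces at 26 weeks (SD, n = 4 each). Every SBMA library lay below every control library, so the Q module gene was low relative to the N module gene in each SBMA mouse. At 15 weeks the same ratio was -0.97 ± 0.016 in SBMA (n = 4) and -0.72 ± 0.054 in control pieces (n = 3), with ranges of -0.99 to -0.96 and -0.76 to -0.66. In perisynaptic pieces it was -1.17 ± 0.13 in SBMA and -0.62 ± 0.29 in control mice at 26 weeks, and -0.89 ± 0.059 in SBMA and -0.70 ± 0.048 in control mice at 15 weeks. In all 4 pairs the SBMA libraries lay below the control libraries. The ratio was picked after the fold changes had been seen, so it is a description. For Ndufa5 over Ndufv1 the values were -1.71 ± 0.046 in SBMA and -1.09 ± 0.12 in control extrasynaptic pieces at 26 weeks.

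The promoters of the nuclear members were searched for sites of factors known to act on respiratory genes: NRF1 (GCGC, any base, TGCGC), the ETS factors that include GABP (CCGGAAG), YY1 (AAGATGGCG) and the oestrogen-related receptors (TCAAGGTCA), on both strands of the 250 bases before to 50 bases after each start. RefSeq promoters (GRCm38.p6) were matched for 33 of 38 nuclear members. The NRF1 letters stood in 7 of 33 (21.2%), against 4.60% of all 32851 promoters, and the YY1 letters in 5 (15.2%), against 1.40%. The ETS letters stood in 4 (12.1%, against 8.86%) and the receptor letters in 0 (against 0.423%). The promoters of the 2 members with the largest falls and of the one with the smallest called change are shown, with the matches in capitals. That of Ndufa5 (chr6:24527477-24527776, - strand) holds 1 NRF1 match, that of Ndufs7 (chr10:80249199-80249498, + strand) holds 1 YY1 match, and that of Ndufv1 (chr19:4012706-4013005, - strand) holds none of the 4 motifs:
Ndufa5: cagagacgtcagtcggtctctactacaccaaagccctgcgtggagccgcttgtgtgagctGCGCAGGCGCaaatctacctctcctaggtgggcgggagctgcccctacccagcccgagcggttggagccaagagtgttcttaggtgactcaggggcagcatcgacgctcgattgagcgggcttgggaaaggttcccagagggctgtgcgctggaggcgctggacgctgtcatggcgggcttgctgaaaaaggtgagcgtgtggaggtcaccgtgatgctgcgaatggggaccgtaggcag
Ndufs7: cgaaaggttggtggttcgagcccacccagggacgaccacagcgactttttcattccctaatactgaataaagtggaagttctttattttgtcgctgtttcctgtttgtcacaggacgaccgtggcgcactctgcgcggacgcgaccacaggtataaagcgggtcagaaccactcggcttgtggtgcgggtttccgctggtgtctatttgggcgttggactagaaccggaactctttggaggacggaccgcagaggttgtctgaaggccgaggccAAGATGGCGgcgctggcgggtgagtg
Ndufv1: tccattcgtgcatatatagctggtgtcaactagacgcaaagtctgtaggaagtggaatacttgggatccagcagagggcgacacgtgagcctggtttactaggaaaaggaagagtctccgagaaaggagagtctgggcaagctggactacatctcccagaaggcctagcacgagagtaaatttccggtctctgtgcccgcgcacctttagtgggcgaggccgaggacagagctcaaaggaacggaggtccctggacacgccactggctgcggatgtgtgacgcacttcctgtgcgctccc
The members with the NRF1 letters had a median log2 fold change of -0.49 in extrasynaptic pieces at 26 weeks and those without it -0.43; for YY1 the medians were -0.46 and -0.43. These medians lie close together against a range of -0.82 to -0.18 over the nuclear members. A match is a run of letters and does not show that a factor binds there. Neither exon length (Spearman's rho -0.015 over the 38 genes) nor the control level per kilobase (rho 0.06) ordered the fold changes. Both are descriptions across genes of the same libraries.

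The mitochondrial members of extrasynaptic pieces at 26 weeks did not move together. mt-Nd1, which lies beside the ubiquinone channel, had 13145, 14154, 14039 and 13672 CPM in SBMA and 19471, 17412, 18147 and 20312 CPM in control pieces. The groups did not overlap, and the log2 fold change was -0.45 ± 0.084 (adjusted p = 8.89e-04). mt-Nd4, a proton-pumping subunit, had 7304, 8196, 8462 and 7802 CPM in SBMA and 9925, 9823, 8986 and 9881 CPM in control pieces, also without overlap, and changed by -0.28 ± 0.074 (adjusted p = 0.00934). The call for mt-Nd4 was lost with total-count scaling (-0.070, adjusted p = 0.477) and within each run (adjusted p = 0.0609 and 0.264), with the replicate block (0.0502) and without the filter (0.0576), while that for mt-Nd1 was lost in no alternative tried. The median over the 5 members was 0.0049 with total-count scaling, against -0.21 with TMM, where all genes had 0.18 and -0.031.

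mt-Nd5, another proton-pumping subunit, had 13185, 12272, 14066 and 14722 CPM in SBMA and 10931, 8549, 14280.3 and 15449 CPM in control pieces. The control values split by run, with control mice 1 and 2 low and control mice 3 and 4 high, and the SBMA values spanned 12272 to 14722 CPM. Its log2 fold change was 0.14 ± 0.15 (adjusted p = 0.492), with 0.39 within the first run and -0.021 within the second. With total-count scaling mt-Nd5 was called higher (0.37, adjusted p = 0.0378). mt-Nd2, the third proton-pumping subunit, had 12423, 12379, 13895 and 12794 CPM in SBMA and 14928, 12145, 15517 and 17154 CPM in control pieces, with control mouse 2 below every SBMA library, and -0.21 ± 0.096 was not called (adjusted p = 0.10). mt-Nd6, of the opposite strand, had 1089, 1714, 2244 and 1360.2 CPM in SBMA and 1753, 1561, 1519.7 and 2566 CPM in control pieces, with wide overlap and -0.21 ± 0.20 (adjusted p = 0.444). The log2 ratio of mt-Nd1 to mt-Nd5 within a library was 0.023 ± 0.13 in SBMA and 0.65 ± 0.33 in control pieces, with ranges of -0.11 to 0.21 and 0.35 to 1.03 that did not overlap. In perisynaptic pieces of the same age this ratio did overlap between genotypes. It was picked after the values had been seen, so it is a description.

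**Figure D3:**
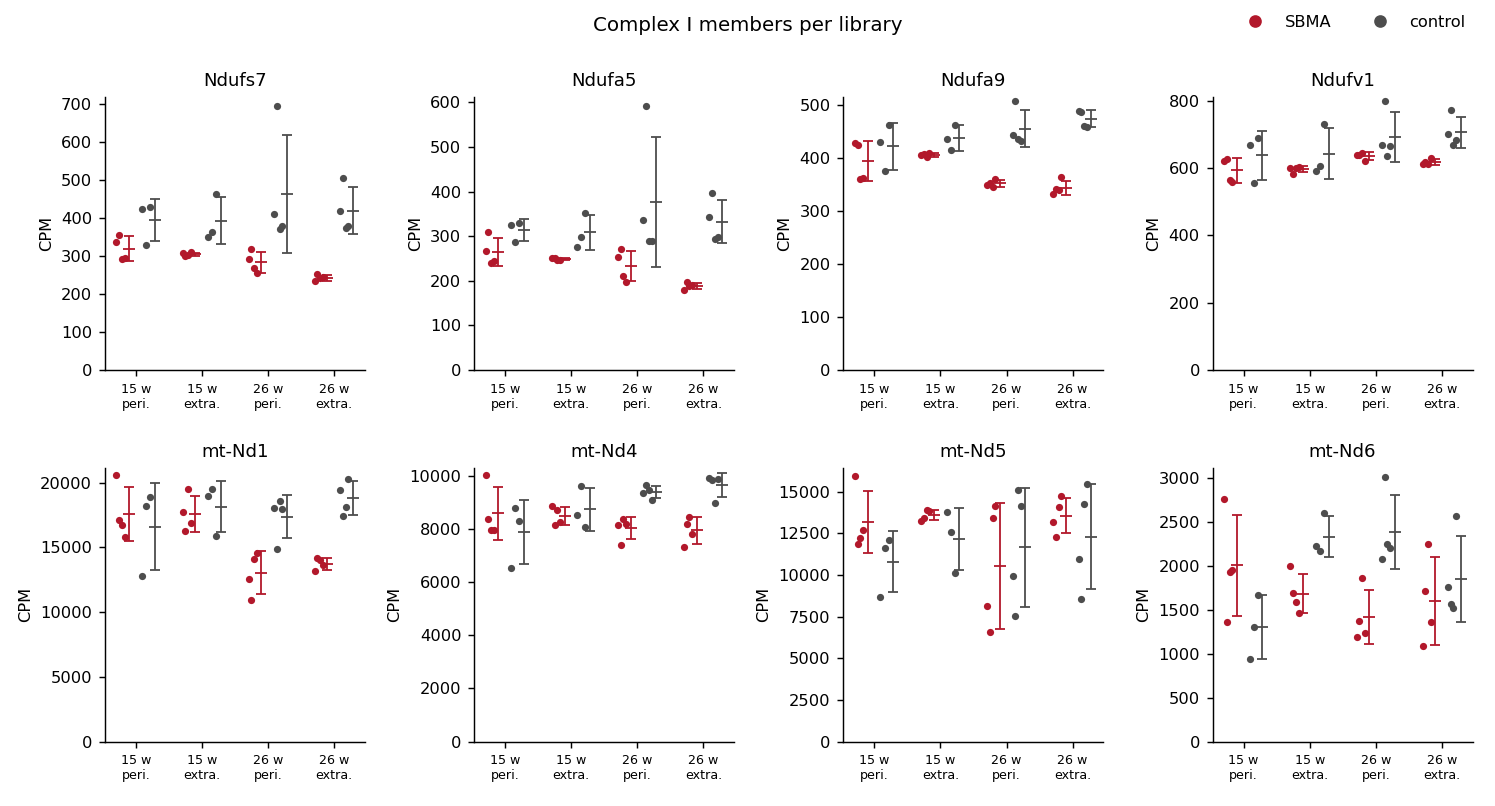
Level of 8 members per library, in CPM, with the mean and SD beside each group. Ndufs7 and Ndufa5 separate SBMA from control at 26 weeks in both pieces, with control mouse 2 the highest point of the perisynaptic pieces (695 CPM for Ndufs7), Ndufv1 shows a smaller gap, and the mt-Nd5 values of SBMA and control overlap in every pair.

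In perisynaptic diaphragm at 26 weeks the members leaned the same way, and the number called hung on the scaling, the test and how the runs were treated. All 38 nuclear members and all 5 mitochondrial members tested had a negative log2 fold change, with medians of -0.36 and -0.30, against -0.016 over all genes tested. Of the nuclear members 5 were called lower, among them Ndufs7, Ndufa5, Ndufab1 and Ndufa9, and of the mitochondrial ones 1, mt-Nd6, where 5.97% of all 15735 genes were called lower. In 10 nuclear and 3 mitochondrial members every SBMA library lay below every control library, which held for 8.63% of all genes. Here too 5 of 7 skeletal muscle markers were called lower, and their sum spanned 46634 to 55547 CPM in SBMA and 92672 to 107913 CPM in control pieces; its part in the result was not tested.

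Ndufs7 had 292, 319, 268 and 255 CPM in SBMA and 411, 695, 370.5 and 378 CPM in control perisynaptic pieces. The groups did not overlap, and control mouse 2 stood far above the other controls. The log2 fold change was -0.70 ± 0.18 (adjusted p = 0.0161), and -0.44 without that mouse (adjusted p = 0.0154). Ndufa5 had 253, 271, 212 and 198 CPM in SBMA and 336, 592, 289 and 289.8 CPM in control pieces, with the same mouse highest. It changed by -0.68 ± 0.20 (adjusted p = 0.0318), and by -0.38 without that mouse (adjusted p = 0.0460), so both values moved by over 1.5 times while the calls held. Ndufab1 rested less on it: it had 29.9, 35.9, 33.9 and 33.1 CPM in SBMA and 43.7, 44.6, 46.9 and 49.5 CPM in control pieces, with -0.47 ± 0.10 (adjusted p = 0.00677) and -0.48 without that mouse. Ndufa9 (-0.36 ± 0.10, adjusted p = 0.0246) kept its call without that mouse. It lost it with the replicate block (0.0553), only the groups compared (0.0581), no filter (0.0891) and total-count scaling (0.498). Ndufs7 and Ndufa5 lost theirs with only the groups compared (0.0668 and 0.11) and total-count scaling (0.101 and 0.161), and Ndufab1 with total-count scaling (0.11). Each of these genes kept its call with DESeq2, RLE size factors and the runs as block.

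mt-Nd6 had 1187, 1370.2, 1864 and 1235 CPM in SBMA and 2076, 3006, 2242 and 2201 CPM in control perisynaptic pieces. No SBMA library reached a control, the log2 fold change was -0.74 ± 0.22 (adjusted p = 0.0372), and the call was lost without control mouse 2 (-0.61, adjusted p = 0.0737), without control mouse 3 and without SBMA mouse 1, 2 or 4. mt-Nd1 had 12560.5, 10922, 14148 and 14592 CPM in SBMA and 18071, 14915, 18558 and 17948 CPM in control pieces. Its groups did not overlap either, yet -0.40 ± 0.15 was not called (adjusted p = 0.0831). mt-Nd5 had 8109, 6572, 13426 and 14139.8 CPM in SBMA and 9923, 7508, 15068 and 14154 CPM in control pieces, and split by run in both genotypes: replicates 1 and 2 were low and replicates 3 and 4 high. The log2 fold change was -0.13 ± 0.25 (adjusted p = 0.774). mt-Nd2 and mt-Nd4 had -0.30 ± 0.20 and -0.22 ± 0.12 (adjusted p = 0.352 and 0.241).

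With the animal-number runs as block, 16 nuclear and 2 mitochondrial members were called lower. The 5.97% of all genes called lower belongs to the fit without the block. The share with the block, or under the other alternatives below, is not given here. Among those gained were Ndufa4 (adjusted p = 0.0422), Ndufs8 (0.0371), Ndufv2 (0.0264) and mt-Nd1 (0.0441). Without the block and by module, 4 of 6 Q module genes were called lower in perisynaptic pieces at 26 weeks, 1 of 11 of the distal membrane arm (Ndufab1), 0 of 10 of the N module and 0 of 9 of the proximal membrane arm. The core subunits not called in that fit, Ndufs3, Ndufs8, Ndufv1, Ndufv2 and Ndufs1, had -0.27, -0.37, -0.11, -0.38 and -0.14, and Ndufa4 and Ndufa4l2 had -0.36 and -0.50. Without control mouse 2, 4 nuclear members were called and their median was -0.14. With total-count scaling 0 nuclear and 0 mitochondrial members were called, and the medians were -0.11 and -0.038, against 0.24 over all genes. Within the first run 0 nuclear members were called and within the second 12. The fold changes of the 38 nuclear members in perisynaptic and extrasynaptic pieces went together (Pearson's r = 0.92, Spearman's rho = 0.89), a description of pieces from the same mice.

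At 15 weeks 0 members were called in either piece, where 0.210% of all genes were called in perisynaptic and 1.22% in extrasynaptic pieces. At an unadjusted p under 0.05, 0 nuclear and 1 mitochondrial member passed in perisynaptic pieces (7.11% of all genes) and 10 nuclear and 1 mitochondrial member in extrasynaptic pieces (14.4% of all genes); DESeq2 called 1 nuclear member in extrasynaptic pieces and no other. The direction was nonetheless shared: 37 of 38 nuclear members had a negative log2 fold change in perisynaptic pieces, with a median of -0.14, and the median was -0.15 in extrasynaptic pieces. With total-count scaling the extrasynaptic median turned to 0.041, Ndufs1 was called higher, and the perisynaptic median was -0.058. The medians of all genes under that scaling were 0.19 in extrasynaptic and 0.073 in perisynaptic pieces. With the animal-number runs, unbalanced at this age, as block, the nuclear medians were -0.21 in perisynaptic and -0.12 in extrasynaptic pieces. Without control mouse 2 of 26 weeks, which enters the same fit, 2 Q module genes were called lower in extrasynaptic pieces, Ndufs7 among them. In 14 nuclear members every extrasynaptic SBMA library lay below every control library (7.69% of all genes), and in 2 every perisynaptic one (5.26%).

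Among the core subunits at 15 weeks, Ndufs7 had 306, 300.2, 302 and 309 CPM in SBMA and 349.5, 363 and 463 CPM in control extrasynaptic pieces. The groups did not overlap, and the log2 fold change was -0.37 ± 0.11 (adjusted p = 0.115). In perisynaptic pieces it had 338, 355, 291 and 293 CPM in SBMA and 423, 329 and 428 CPM in control mice, with -0.31 ± 0.19 (adjusted p = 0.840). Ndufa5 gave -0.31 and -0.25 in extrasynaptic and perisynaptic pieces. The other nuclear core subunits named above ranged between -0.18 for Ndufs8 and 0.023 for Ndufs1 in extrasynaptic pieces, and between -0.15 for Ndufs8 and -0.015 for Ndufs1 in perisynaptic ones. Ndufa4 had -0.13 and -0.15, and Ndufa4l2 -0.42 and -0.20.

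Of the mitochondrial members at 15 weeks, mt-Nd6 was the most divided. In extrasynaptic pieces it had 1993, 1685, 1590.5 and 1468 CPM in SBMA and 2221, 2169 and 2599 CPM in control mice, where every SBMA library lay below every control library. In perisynaptic pieces it had 2764, 1366, 1932 and 1952 CPM in SBMA and 934, 1303 and 1669 CPM in control mice, which leaned the other way and overlapped. Neither -0.47 ± 0.21 nor 0.62 ± 0.24 was called (adjusted p = 0.325 and 0.563), and the difference between the pieces was not called (log2 difference 1.09 ± 0.24, adjusted p = 0.453). mt-Nd1, mt-Nd2, mt-Nd4 and mt-Nd5 had -0.045, 0.073, -0.044 and 0.16 in extrasynaptic pieces and 0.076, 0.12, 0.12 and 0.28 in perisynaptic pieces.

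Between 15 and 26 weeks the control mice gave 0 calls, among members and among all genes, in either piece. No animal-number run holds mice of both ages, so age and run cannot be told apart here. In extrasynaptic SBMA pieces 5 nuclear members were called lower at 26 than at 15 weeks, where 5.62% of all genes were called lower, and mt-Nd1 was called lower too. Ndufa5 had 179, 196, 188 and 191 CPM at 26 weeks and 251, 251, 245 and 247 CPM at 15 weeks. The ages did not overlap, and the log2 fold change was -0.40 ± 0.093 (adjusted p = 0.0118). Ndufa9 had 333, 340.2, 339 and 363 CPM at 26 weeks and 405, 407, 401 and 409.7 CPM at 15 weeks, a change of -0.24 ± 0.056 (adjusted p = 0.0117). Ndufs7, Ndufab1 and Ndufs4, an accessory subunit whose loss causes a Leigh-like disease in mice, changed by -0.32, -0.24 and -0.29. mt-Nd1 had 13145, 14154, 14039 and 13672 CPM at 26 weeks and 17751, 16291, 19496 and 16878 CPM at 15 weeks, again without overlap, and changed by -0.36 ± 0.084 (adjusted p = 0.0129). With total-count scaling mt-Nd1 alone of these 6 kept its call (adjusted p = 0.038), and Ndufa5, Ndufa9, Ndufab1, Ndufs4 and Ndufs7 had adjusted p of 0.0598, 0.161, 0.171, 0.105 and 0.168. In perisynaptic SBMA pieces 0 members were called, where 1.60% of all genes were called lower.

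Whether the SBMA effect itself grew with age was tested as the difference of the effects at 26 and 15 weeks. In extrasynaptic pieces 1 nuclear member passed, Ndufa9 (-0.35 ± 0.082, adjusted p = 0.0426), where 0.715% of all genes had a lower effect at 26 weeks, and next came Ndufab1 (-0.44 ± 0.11, adjusted p = 0.0583). The call for Ndufa9 was lost when any 1 of 11 of the 15 mice was left out (adjusted p up to 0.111), with values between -0.40 and -0.32. It was also lost with the runs as block (0.0609), the replicate block (0.232), total-count scaling (0.123) and no filter (0.194). Ndufs7 and Ndufa5 gave -0.42 ± 0.15 and -0.51 ± 0.14 (adjusted p = 0.169 and 0.0771), and mt-Nd1 -0.41 ± 0.12 (adjusted p = 0.117). In perisynaptic pieces 0 members passed, where 0.133% of all genes had a lower effect. The larger count of calls at 26 than at 15 weeks is therefore not shown to be a difference for most members.

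Between pieces of the same mouse few members were called. In control mice at 15 weeks 1 member was called, mt-Nd6, lower in perisynaptic pieces (934, 1303 and 1669 CPM) than in extrasynaptic ones (2221, 2169 and 2599 CPM), with a log2 difference of -0.87 ± 0.18 (adjusted p = 0.0184), where 0.229% of all genes were called lower. That call was lost without the term for the mouse and for some mice left out. In the other 3 pairs of pieces 0 members were called, where 0.948% (SBMA, 15 weeks), 1.18% (control, 26 weeks) and 2.07% (SBMA, 26 weeks) of all genes were called. In SBMA mice at 26 weeks the nuclear members leaned higher in perisynaptic pieces, with a median of 0.22 and 25 at an unadjusted p under 0.05, as were 23.8% of all genes. There the call count was 14 without the filter on low counts (12 higher, 2 lower), 8 without SBMA mouse 4 and 4 without control mouse 2. For Ndufs7 the perisynaptic values there were 292, 319, 268 and 255 CPM and the extrasynaptic ones 233, 252, 242 and 245 CPM. The difference of the piece effect between genotypes was called for 0 members at either age, where 0.00% of all genes were called at 15 weeks and 0.0124% at 26 weeks.

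The neighbours of complex I in the pathway moved alongside it in extrasynaptic pieces at 26 weeks. Nuclear subunits of complexes II to V were called lower in 33 of 40, with a median of -0.36; Uqcrc1 of complex III changed by -0.81, Cyc1, cytochrome c1, by -0.60, the muscle isoform Cox6a2 of complex IV by -0.68 and Atp5f1 of ATP synthase by -0.44. Of the assembly factors of complex I, 9 of 17 were called lower, with a median of -0.22. They were led by Ndufaf5, which modifies Ndufs7 (-0.80 ± 0.083, adjusted p = 5.74e-06), Ecsit (-0.62 ± 0.077), Tmem186 (-0.50 ± 0.079) and Ndufaf1 (-0.42 ± 0.072). Of the 2 other mitochondrial messages with counts, mt-Co1 of complex IV changed by -0.48 ± 0.090 (adjusted p = 9.96e-04) and mt-Cytb of complex III, at -0.18 ± 0.073, was not called. All these counts stand against 16.1% of all genes called lower. Without control mouse 2 the counts were 26 of 40 for complexes II to V and 9 of 17 for assembly. With total-count scaling the counts were 12 lower and 1 higher for complexes II to V (median -0.15) and 4 lower and 2 higher for assembly (median -0.0076). The median of all genes under that scaling was 0.18.

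Of the genes that act on mitochondrial DNA and its messages, 7 of 20 were called lower, against 16.1% of all genes, with a median of -0.21: the polymerase Polg had -0.26, the elongation factor Tefm -0.30, Fastk, which is needed for the mt-Nd6 message, -0.28 and the packaging factor Tfam -0.22. Among 15 regulators of mitochondrial genes, 3 were called lower and 2 higher, counts near those over all genes, of which 16.1% were called lower and 16.1% higher. Lower were Perm1, a muscle regulator of oxidative genes (-0.55 ± 0.12), the coactivator Ppargc1b (-0.78 ± 0.20) and Nrf1 (-0.25 ± 0.075), whose letters were searched in the promoters, and higher were Esrrb (0.34 ± 0.11) and Gabpa (0.28 ± 0.10), the DNA-binding part of GABP. Ppargc1a, the best known coactivator of respiratory genes, had -0.84 ± 0.48 and was not called (adjusted p = 0.197), nor was Esrra (-0.093 ± 0.074, adjusted p = 0.353). Without control mouse 2, 6 of 20 genes of mitochondrial DNA expression were called lower, and of the regulators 4 were called lower and 1 higher. With total-count scaling, 1 gene of mitochondrial DNA expression was called higher and 0 lower (median 0.0027). Of the regulators, 6 were called higher and 2 lower (median 0.13). Both medians lay below the 0.18 of all genes under that scaling, whose share of calls is not given here.

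The fibre types that differ in mitochondria were all lower by their myosin heavy chains in extrasynaptic SBMA pieces at 26 weeks. Myh4, of the glycolytic fast fibres, averaged 182 ± 128 CPM in SBMA and 3277 ± 1591 CPM in control pieces, a log2 fold change of -4.17. Myh2, of the oxidative fast fibres, averaged 3194 ± 305 CPM in SBMA and 8373 ± 1843 CPM in control pieces (-1.39), and Myh1 and Myh7, of intermediate fast and slow fibres, had -1.19 and -0.75. Total-count scaling left 3 of the 4 called lower, and 4 of 4 were called without control mouse 2. Their part in the complex I result was not tested.

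In perisynaptic pieces at 26 weeks the lists were called lower in 6 of 40 for complexes II to V, 6 of 17 for assembly, 0 of 2 for other mitochondrial messages, 0 of 20 for mitochondrial DNA expression, 3 of 15 for regulators and 4 of 4 for myosin heavy chains, against 5.97% of all genes. Without control mouse 2 the counts were 5, 6, 1, 3, 5 and 4 in the same order. Uqcrc1 (-0.68) and Ndufaf5 (-0.81) led their lists there, as in extrasynaptic pieces. Ppargc1b, Perm1 and Nrf1 changed by -1.08, -0.50 and -0.29. At 15 weeks 0 genes of these lists were called in either piece, with Uqcrc1 at -0.28 and Ndufaf5 at -0.18 in extrasynaptic pieces.

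**Figure D4:**
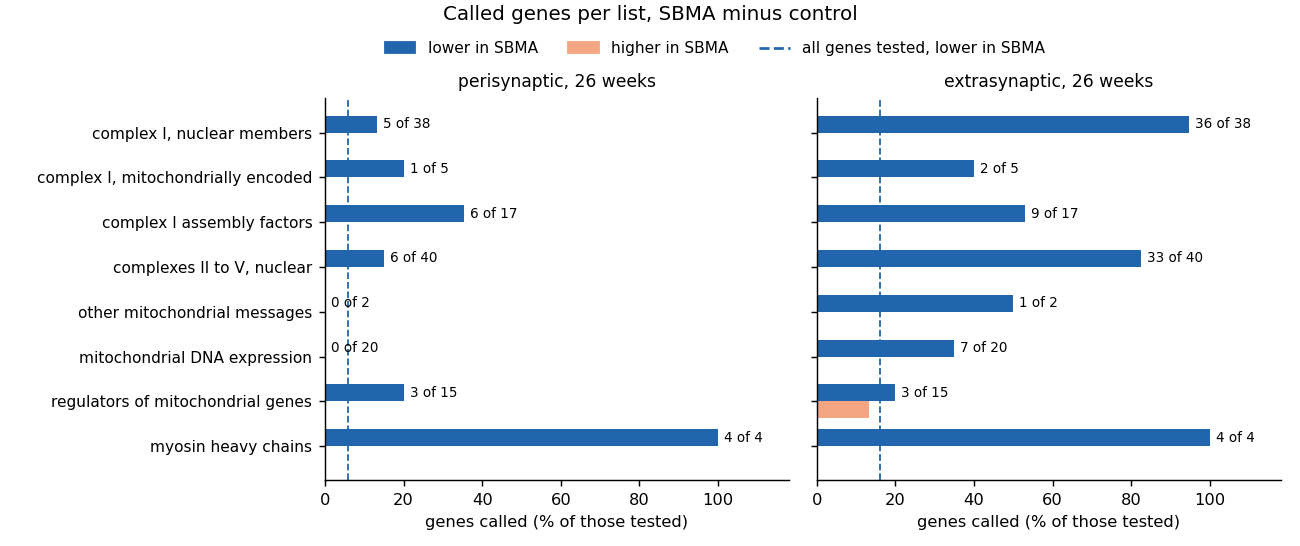
Share of tested genes called in SBMA minus control at 26 weeks, for perisynaptic (left) and extrasynaptic (right) pieces, with blue bars for genes called lower in SBMA (counts written beside them), orange bars for genes called higher, and a dashed line at the share of all genes called lower (5.97% and 16.1%). In extrasynaptic pieces the nuclear members of complex I (36 of 38) and of complexes II to V (33 of 40) stand furthest above the line beside the 4 of 4 myosin heavy chains, while genes for mitochondrial DNA expression reach 7 of 20.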

How the data were processed

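RNA from perisynaptic and extrasynaptic diaphragm pieces of 15 mice was turned into 30 stranded libraries of poly(A)-selected messages, per the labels' protocols. The authors deposited 1 table of raw counts per gene; per the submitters' processing notes, featureCounts was the counting tool and mm10 the genome build. No source used here gives the aligner, the annotation, the strand setting or the treatment of reads matching several places. Of 33076 gene IDs, 33064 were matched to GENCODE vM21 symbols, and the other 12 held 0.00171% of counts.

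Counts were fitted per region (15 libraries, 4 groups, 11 residual degrees of freedom) with edgeR 4.0.16 (R 4.3.3, limma 3.58.1) by glmQLFit and glmQLFTest, after TMM scaling and filterByExpr (minimum count 10, minimum total 15). Pieces were compared in a fit of all 30 libraries with a term for the mouse (19 columns, 11 residual degrees of freedom). Benjamini-Hochberg adjustment ran over all genes tested, with calls at 0.05. Fold changes are log2, and the prior count (2) belongs to the log2 CPM values. Replicates are separate mice by their names, and both pieces of a mouse share its name. The tests were checked on simulated counts. DESeq2 1.42.0, other scalings, no filter, blocks and each mouse left out were the alternatives. Members and gene lists were chosen with earlier results of these data known. All members were counted, and 1 of them and the targeted gene are not reported individually here. The other core subunits, Ndufa4 and Ndufa4l2 were named whatever their result, and of the others up to 6 with the smallest p per comparison, up to 4 per pathway list, and those with the largest fold changes; Ndufa13, Ndufc2, Ndufb4, Ndufb7, Esrra, Ppargc1a, Gabpa and the ratios were chosen after their values were seen. Depth limits the precision of genes with few counts, such as Ndufa4l2.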

Additional observations from a re-analysis of the deposited data

Results flagged for a closer look

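In 138 groups of 4 libraries the highest and lowest values of named members and sums were compared with the rest by Dixon's gap test, which marks about 1 group in 20 by chance. It marked 11 values. Of these, 5 fell on the perisynaptic library of control mouse 2 at 26 weeks, which had Ndufa5 at 592 CPM (the other controls 289 to 336), Ndufs7 at 695 CPM (370.5 to 411), Ndufa9 at 506 CPM (432 to 444), Ndufb2 at 162 CPM (76.3 to 84.9) and mt-Nd1, in the other direction, at 14915 CPM (17948 to 18558).

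In SBMA mice of 15 weeks, replicate 1 stood apart in the summed mitochondrial members of perisynaptic pieces with 67557 CPM (the others 51885 to 53725) and in extrasynaptic Ndufb2 with 69.2 CPM (64.0 to 64.8). Replicate 2 was low in extrasynaptic Ndufs4, with 251 CPM (259.6 to 261), and in extrasynaptic Ndufv1, with 583 CPM (599 to 602). At 26 weeks, extrasynaptic Ndufa4l2 was low in SBMA replicate 2, with 4.71 CPM (5.92 to 5.99), and extrasynaptic mt-Nd4 was low in control replicate 3, with 8986 CPM (9823 to 9925).

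The SBMA effect on Ndufa9 differed between ages in extrasynaptic pieces by the test of the difference itself, with a log2 value of -0.35 (adjusted p = 0.0426). The call was lost with the runs as block (0.0609), the replicate block (0.232), total-count scaling (0.123), no filter (0.194) and 11 of 15 mice left out. It is the 1 of 43 tested members for which this difference was called in either piece.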

How the results depend on the processing

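Against the values reported, 385 of 448 counts of calls stayed within 1.5 times. Of the medians, 185 of 192 stayed within a set tolerance on the log2 scale. It was 0.116 in extrasynaptic pieces, and in perisynaptic ones 0.244 for nuclear and 0.223 for mitochondrial members. The 0.244 is larger than the perisynaptic nuclear median at 15 weeks (-0.14) and a large part of that at 26 weeks (-0.36). Staying within it therefore does not show that those medians are stable. Of single-gene values 1531 kept direction and side of the threshold, 19 gained a call, 2 reversed and the rest lost a call. Ndufs7, Ndufa5, Ndufa9 and mt-Nd1 in extrasynaptic pieces at 26 weeks lost their calls in no alternative run. The causes of the changes listed here were not tested, except that total-count scaling adds the same shift to every gene.

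For SBMA minus control, the nuclear members called in perisynaptic pieces at 26 weeks numbered 5, against 10 with DESeq2, 16 with the animal-number runs as block, 1 with only the groups compared, 0 with total-count scaling, 0 and 12 within the first and second run, and 2 to 9 with a mouse left out. Mitochondrial members called there were 2 with DESeq2 and with the runs as block, 0 with total-count scaling and within the first run, and 0 to 1 with a mouse left out. In extrasynaptic pieces at 26 weeks the nuclear count was 14 with total-count scaling and 13 within the second run, and the mitochondrial count was 1 without the filter, with the replicate block and within each run. In extrasynaptic pieces at 15 weeks the nuclear count was 1 with DESeq2 and with total-count scaling and 0 to 2 with a mouse left out. Total-count scaling gave nuclear medians of 0.041 (extrasynaptic, 15 weeks), -0.22 (extrasynaptic, 26 weeks) and -0.11 (perisynaptic, 26 weeks) and mitochondrial ones of 0.15, 0.0049 and -0.038, and turned extrasynaptic Ndufv1 at 26 weeks to 0.0185. The medians of all genes under that scaling were 0.19, 0.18 and 0.24 in the same order. Within the second run the extrasynaptic nuclear median was -0.28 and Ndufa4l2 turned to 0.0237.

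For the change of the SBMA effect with age in extrasynaptic pieces, the count was 5 with DESeq2, 0 with the runs as block, without the filter, with the replicate block and with total-count scaling, and 0 to 6 with a mouse left out; in perisynaptic pieces it was 1 with DESeq2 and without the filter. For 26 minus 15 weeks in extrasynaptic SBMA pieces it was 3 without the filter, 1 with total-count scaling and 3 to 9 with a mouse left out. Between pieces, control mice at 15 weeks gave 0 without the animal term, 0 with the replicate block in its place and 0 to 1 with a mouse left out; without the filter there were 14 calls in SBMA mice at 26 weeks, 1 in control mice at 26 weeks and 1 for the genotype difference at each age, DESeq2 gave 1 for that difference at 15 weeks, and leaving out a mouse gave 0 to 8 in SBMA mice at 26 weeks.

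Same-numbered SBMA and control mice are different animals. Their deviations correlated by over 0.1 in 3 of 4 pairs of each piece at 26 weeks (means 0.267 perisynaptic, 0.117 extrasynaptic) and in 0 of 3 pairs at 15 weeks. For the pieces of a mouse at 26 weeks the mean was 0.408 and the range 0.213 to 0.615, and perisynaptic same-numbered pairs reached 0.398. Mice of different numbers were not compared, so whether same-numbered mice share handling was not tested. With the replicate block the nuclear counts at 26 weeks were 6 in perisynaptic and 34 in extrasynaptic pieces. The within-run comparisons were chosen after seeing the data.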
